A study of Mus musculus with 5 samples.

Results

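The 10 genes followed here through RNA-seq belong to the integrated stress response and the unfolded protein response in mouse Lewis lung carcinoma (LLC), a lung tumor line that grows in C57BL/6 mice. They were ATF4, ATF3, DDIT3, TRIB3, ASNS, CHAC1, HSPA5, XBP1, HERPUD1 and PPP1R15A. They were chosen by name, and all 10 were among the 13979 gene symbols shared by the 3 tables used. There were 5 groups with 1 library each. Control received no drug, PAZA received a polymer carrier conjugated with the DNA methyltransferase inhibitor 5-azacytidine, BMN received the PARP inhibitor BMN673, and BMN/PAZA received BMN673 loaded in PAZA at a low dose or a high dose. By the labels, the material was LLC cells cultured with the agents over 72 h, whereas the study's methods describe subcutaneous LLC tumors of mice treated by repeated intravenous injection, so what was sequenced is given differently by the sources. The number of animals behind a library is not given in the sources used here. Since each group was 1 library, no replicate error could be computed, no test was possible, and every difference below compares 2 libraries and not 2 conditions.

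The integrated stress response begins with kinases that phosphorylate the translation factor eIF2alpha. General translation then slows, while the mRNA of ATF4 is translated more, and ATF4 switches on genes for amino acid supply and for cell death. The unfolded protein response is the endoplasmic reticulum (ER) counterpart: IRE1 splices the mRNA of XBP1, ATF6 is cut to an active fragment, and PERK feeds into the eIF2alpha branch. Both responses are known from tumors, where hypoxia and nutrient shortage are common. Much of this control acts on translation, splicing and protein cleavage, which the gene-level RNA values used here do not measure.

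The promoters of 4 genes are shown because 2 of them, CHAC1 and ASNS, hold the same ATF4 element and differed in direction between PAZA and Control, and the others, HSPA5 and HERPUD1, hold the ER stress elements of the unfolded protein response. All motifs were searched on both strands. Each line gives the 250 bases before the RefSeq start of the gene, 5′ to 3′ on the gene's strand (build GRCm38.p6), with motif matches in capitals.
CHAC1 (chr2:119350992-119351241, plus strand): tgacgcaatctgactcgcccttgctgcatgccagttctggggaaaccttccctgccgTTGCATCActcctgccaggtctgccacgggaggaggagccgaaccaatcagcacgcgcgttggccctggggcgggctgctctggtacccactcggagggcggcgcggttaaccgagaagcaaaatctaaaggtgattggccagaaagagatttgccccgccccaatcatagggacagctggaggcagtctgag
ASNS (chr6:7693210-7693459, minus strand): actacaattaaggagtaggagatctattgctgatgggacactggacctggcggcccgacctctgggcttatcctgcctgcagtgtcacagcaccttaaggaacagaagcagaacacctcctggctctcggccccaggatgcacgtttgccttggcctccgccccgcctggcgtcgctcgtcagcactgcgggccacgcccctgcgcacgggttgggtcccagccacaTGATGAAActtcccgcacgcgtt
HSPA5 (chr2:34771840-34772089, plus strand): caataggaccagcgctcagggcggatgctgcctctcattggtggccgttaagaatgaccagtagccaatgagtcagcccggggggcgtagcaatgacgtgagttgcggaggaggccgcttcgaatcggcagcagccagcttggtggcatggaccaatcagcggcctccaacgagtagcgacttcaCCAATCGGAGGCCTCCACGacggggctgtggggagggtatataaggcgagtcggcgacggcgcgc
HERPUD1 (chr8:94386179-94386428, plus strand): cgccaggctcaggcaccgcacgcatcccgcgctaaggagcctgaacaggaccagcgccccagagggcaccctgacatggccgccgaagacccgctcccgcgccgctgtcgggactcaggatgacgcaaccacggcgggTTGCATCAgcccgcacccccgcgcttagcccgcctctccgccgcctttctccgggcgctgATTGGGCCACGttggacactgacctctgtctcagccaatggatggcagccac
In CHAC1 and ASNS the capitals mark TGATGNAA, the C/EBP-ATF response element (CARE) to which ATF4 binds. It began 193 bases before the start in CHAC1, 23 in ASNS, 112 in HERPUD1 and 110 in ATF3 (not shown). Thus 4 of the 10 promoters held it, against 3.45% of 32851 RefSeq mouse promoters. In HSPA5 the capitals mark the ER stress element, CCAAT and CCACG with any 9 bases between them, 65 bases before the start, which 0.113% of all promoters held. The second block of capitals in HERPUD1 is ER stress element II, ATTGG and CCACG with any 1 base between them, 52 bases before the start, which 0.0304% held. The cyclic AMP response element TGACGTCA was found only in PPP1R15A, 12 bases before the start, against 1.55% of all promoters. No matches overlapped, and a match describes letters in this window and not binding.

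Levels are given as scaled values: the deposited FPKM of a gene divided by the library's sum over the shared symbols times 1000000. FPKM corrects for gene length, so levels of different genes can be set side by side. Across the 10 genes, levels spanned from 408 to 523 for HSPA5 to between 0.335 and 2.61 for CHAC1, and HSPA5 was the highest of the 10 in every library. The 5 genes ATF4, ATF3, ASNS, HSPA5 and XBP1 had more than 50 in every library, whereas DDIT3, TRIB3 and CHAC1 were the lowest in Control, with 7.83, 3.27 and 2.24.

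**Figure D1:**
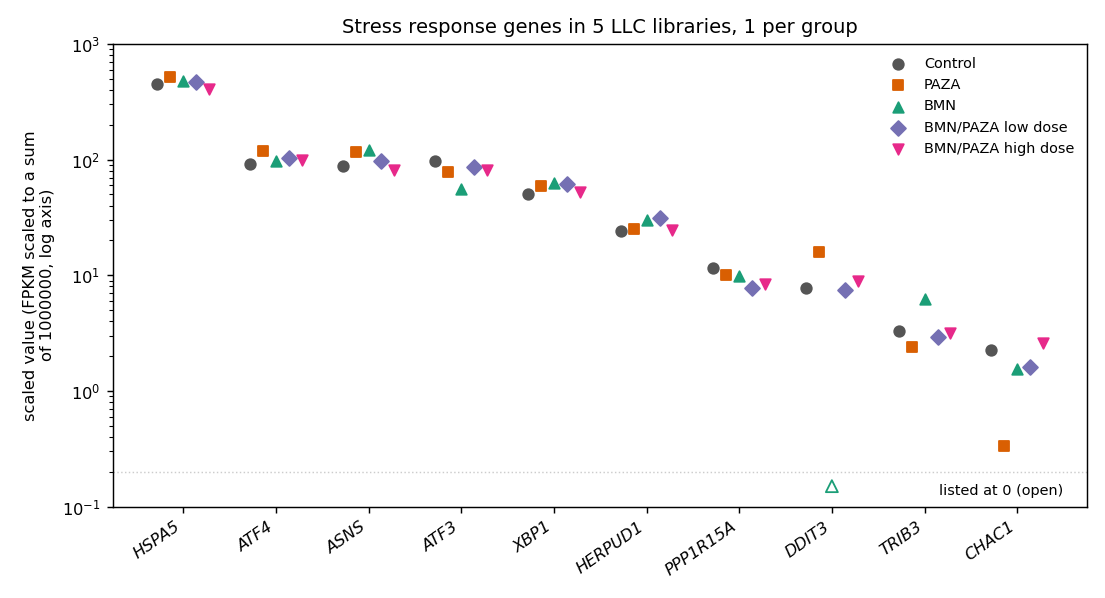
Scaled value (scaled FPKM, log axis) of each of the 10 genes, with 1 symbol per library and group, genes ordered by their mean. The 5 libraries lie close together for HSPA5 (408 to 523) and ATF4 (91.0 to 118) and spread most for CHAC1, where PAZA is at 0.335, and the open triangle marks DDIT3, listed at 0 in BMN.

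ATF4 (chr15:80255184-80257545), the transcription factor at the centre of the integrated stress response, was listed at 91.0 in Control, 118 in PAZA, 97.5 in BMN, 102 in BMN/PAZA low dose and 99.9 in BMN/PAZA high dose. PAZA was the highest and Control the lowest, 1.29-fold apart, which is among the narrowest spreads of the 10 genes. ATF3 (chr1:191170296-191183333), a stress-induced factor of the same family, was listed at 97.1 in Control, 78.5 in PAZA, 55.4 in BMN, 87.1 in low dose and 81.3 in high dose. Control was the highest, and BMN lay below the other 4 libraries. The ratio of highest to lowest was 1.75.

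TRIB3 (chr2:152337425-152344060), a pseudokinase induced by ATF4 and CHOP, was listed at 3.27 in Control, 2.38 in PAZA, 6.27 in BMN, 2.95 in low dose and 3.17 in high dose. BMN stood above the other 4 libraries, which lay between 2.38 and 3.27. BMN thus held the lowest ATF3 and the highest TRIB3. PPP1R15A (chr7:45522917-45526268), which encodes GADD34, the subunit that directs a phosphatase to eIF2alpha and so ends the response, was listed at 11.5 in Control, 10.0 in PAZA, 9.78 in BMN, 7.72 in low dose and 8.42 in high dose. All 4 treated libraries were below Control, by 1.49-fold at most.

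ASNS (chr6:7675165-7693209), asparagine synthetase and a classical ATF4 target, was listed at 88.9 in Control, 117 in PAZA, 120 in BMN, 97.7 in low dose and 82.0 in high dose. PAZA and BMN were the 2 highest, and the high dose was the lowest. With libraries scaled by their median ratio in place of their sum, the high dose lay above Control for ASNS (log2 difference 0.14). CHAC1 (chr2:119351242-119354326), which degrades glutathione and is another ATF4 target, was listed at 2.24 in Control, 0.335 in PAZA, 1.56 in BMN, 1.60 in low dose and 2.61 in high dose. PAZA lay apart from the other 4 libraries, which ranged from 1.56 to 2.61. CHAC1 was thus lowest in the library with the highest ATF4. Its ratio of highest to lowest, 7.79, was the largest of the 10 genes, but it was also the gene with the lowest level in PAZA, where the deposited value was 0.193 FPKM. Low values carry more counting error, and the number of reads behind them is unknown.

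HSPA5 (chr2:34772090-34776529), the ER chaperone BiP that holds the stress sensors inactive, was listed at 452 in Control, 523 in PAZA, 482 in BMN, 471 in low dose and 408 in high dose. PAZA was the highest and high dose the lowest, 1.28-fold apart. Scaled by the median ratio, HSPA5 in high dose lay above Control (log2 difference 0.11). XBP1 (chr11:5520641-5525993), the transcription factor made active by IRE1 splicing, was listed at 50.2 in Control, 59.0 in PAZA, 63.0 in BMN, 61.1 in low dose and 52.5 in high dose. All 4 treated libraries were above Control, by 1.25-fold at most, and the spliced form cannot be read from these values. HERPUD1 (chr8:94386429-94395371), an ER membrane protein of the degradation machinery, was listed at 24.0 in Control, 25.2 in PAZA, 30.1 in BMN, 31.1 in low dose and 24.7 in high dose. BMN and low dose were the 2 highest. HSPA5 overlaps Rabepk, and PPP1R15A overlaps Tulp2, in the RefSeq annotation. Whether the counting used strand is not given in the sources used here, so reads from the overlapped parts cannot be told apart.

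DDIT3 (chr10:127290793-127296291) encodes CHOP, the factor that links prolonged stress to cell death. It was listed at 7.83 in Control, 15.7 in PAZA, 0 in BMN, 7.52 in low dose and 8.96 in high dose. PAZA was 2.01-fold above Control, while low and high dose lay near Control. The 0 in BMN is reported only as a listed value, because of how the same gene is listed elsewhere. The low-dose library stands in 3 tables: DDIT3 was 4.20 FPKM in its table with PAZA and 14.3 FPKM in its table with high dose, yet 0 in its table with BMN. The 2 values above 0 differ by 3.41-fold, which is the constant by which the whole low-dose column differs between those tables. So the table that lists BMN and low dose side by side holds a 0 for a library in which DDIT3 is listed above 0 elsewhere.

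The other 6 symbols with the same listing as DDIT3 were listed at 0 for low dose in the table with BMN and above 1 FPKM in the table with high dose. They were ALDOA, ARHGEF4, ATP5O, DPEP2, NDOR1 and SNHG14. Of these 7 symbols, 6 carry more than 1 gene ID in the GENCODE M21 annotation, DDIT3 among them with 2, against 0.181% of the 13804 shared symbols found there. In BMN, 5 symbols were at 0 with at least 5 scaled in each of the other 4 libraries, and these were DDIT3, ALDOA, DPEP2, PAKAP and SNORD22. ALDOA, a glycolytic enzyme that cells use at high levels, was listed at 233 FPKM in Control and 0 in BMN. No fold change of DDIT3 is therefore given against BMN. DDIT3 also overlaps Mars1 and Mbd6, and the listed MARS value was 13.1 FPKM in Control, 23.8 in PAZA and 21.6 in BMN, so MARS too was higher in PAZA. The other 9 genes followed the constant in every pair of tables that shared a library, within 0.5%.

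**Figure D2:**
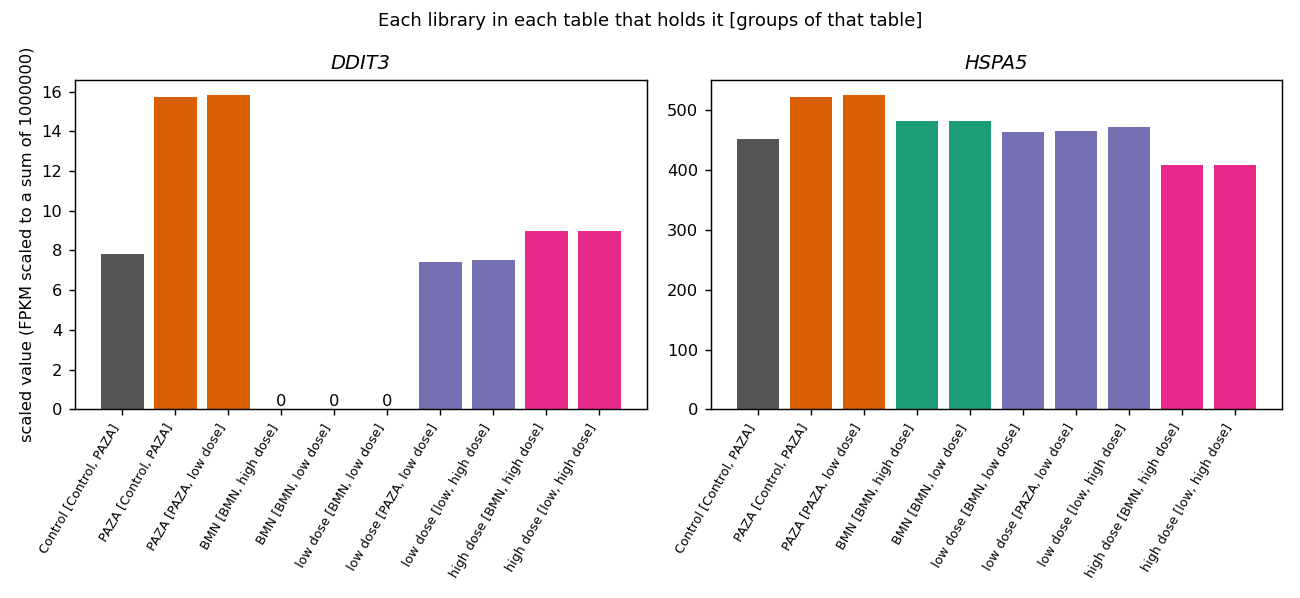
Scaled value (scaled FPKM, linear axis from 0) of DDIT3, left, and HSPA5, right, for each library in each table that lists it, with the groups of that table in brackets and 1 colour per library. HSPA5 keeps its level for a library in every table, whereas DDIT3 is at 0 for low dose in the table with BMN and near 7.5 in the other tables.

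Differences between libraries are given as the log2 difference of the scaled value plus 1, and a gene is counted when it reaches 1, a 2-fold difference on that scale. The scale understates the differences of low genes. Among symbols with expression, the median of all genes relative to Control lay at -0.11 in PAZA, 0.09 in BMN, -0.09 in low dose and -0.23 in high dose. The direction of differences near 0 therefore depends on the scaling, and a scaling by the median ratio is given beside many of the counts.

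In PAZA against Control, 6 of the 10 genes were higher and 4 lower, with a median log2 difference of 0.14, against -0.07 over all 13979 symbols compared. None was 2-fold higher, against 3.47% of all symbols, and 1, CHAC1, was 2-fold lower (-1.28), against 3.53%. At 1.5-fold, DDIT3 (0.92) joined CHAC1, which makes 2 of 10 against 24.6% of all symbols. Under the median ratio 6 were higher and 4 lower as well, but DDIT3 reached 1.03 and so passed 2-fold. The ratio of the DDIT3 values was 2.01, which the added 1 brings below the 2-fold count under the scaling by the sum. DDIT3 was at the 95.9 percentile of all symbols and CHAC1 at the 1.6 percentile. ATF4 (0.37, the 81.2 percentile), ASNS (0.39, the 82.5 percentile), XBP1 (0.23) and HSPA5 (0.21) were higher, and ATF3 (-0.30) and TRIB3 (-0.33) were lower. Both these libraries stand in 1 table.

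In BMN against Control, 6 of the 9 genes with a fold were higher and 3 lower, with a median of 0.10, against 0.09 over all symbols. None was 2-fold higher, against 4.66%, and none with a fold was 2-fold lower, against 2.25%. At 1.5-fold TRIB3 (0.77, the 91.7 percentile) was higher and ATF3 (-0.80, the 3.7 percentile) lower, against 20.1% of all symbols in either direction. ASNS was 0.43 and XBP1 and HERPUD1 were both 0.32, while HSPA5 (0.09) and ATF4 (0.10, the 50.5 percentile) lay at the middle of all symbols.

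In BMN/PAZA low dose against Control, 5 genes were higher and 5 lower, with a median of 0.00, against -0.03 over all symbols. None was 2-fold higher, against 3.65%, and none 2-fold lower, against 3.54%. None passed 1.5-fold either, against 24.1% of all symbols. Under the median ratio 6 were higher and 4 lower, with DDIT3 turned from -0.05 to 0.03. The range ran from -0.52 for PPP1R15A to 0.37 for HERPUD1. The median absolute difference was 0.16 for the 10 genes and 0.32 over all symbols.

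In BMN/PAZA high dose against Control the picture was alike, with 5 genes higher, 5 lower and a median of 0.00, against -0.17 over all symbols. None was 2-fold higher, against 3.20%, none 2-fold lower, against 4.95%, and none passed 1.5-fold, against 26.5%. PPP1R15A was again the lowest (-0.40), and DDIT3 the highest (0.17). The median absolute difference was 0.14, against 0.34 over all symbols. With libraries scaled by their median ratio in place of their sum, 8 genes were higher and 2 lower, with a median of 0.23 against 0.01. HSPA5 was then 0.11 and not -0.15, ASNS 0.14 and not -0.12, ATF3 0.00 and not -0.25, and TRIB3 turned too, so the count at high dose depends on the scaling.

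**Figure D3:**
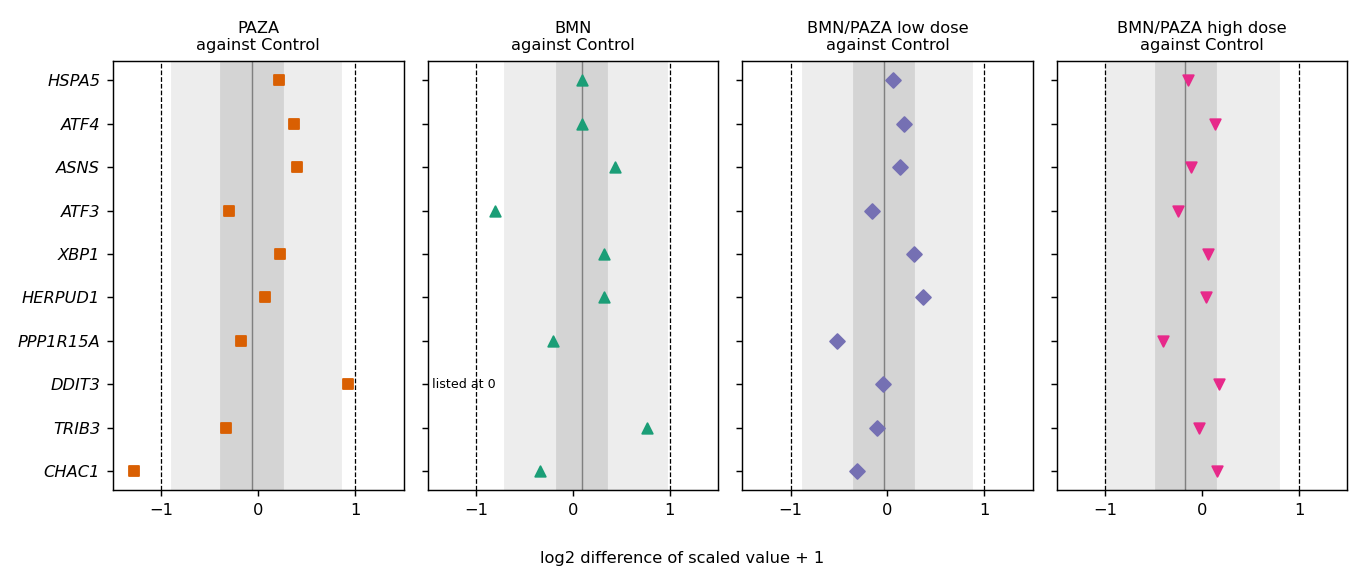
Log2 difference of scaled value plus 1 against Control for each of the 10 genes in the 4 treated libraries (1 panel each). The dark band holds the middle 50% of all symbols, the light band runs from the 5th to the 95th percentile, the thin line is their median and the dashed lines mark 2-fold. CHAC1 in PAZA lies past the 2-fold line at -1.28, and in low and high dose all 10 genes lie between -0.52 and 0.37.

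Low dose against BMN adds PAZA and also changes delivery, since BMN673 was loaded in the carrier, so the 2 cannot be told apart. The labels give no dose for BMN or PAZA alone. In this comparison 4 of 9 genes were higher and 5 lower, with a median of -0.03, against -0.14. Scaled by the median ratio, 6 were higher and 3 lower, with HSPA5 (0.16) and XBP1 (0.14) turned. None with a fold was 2-fold higher, against 3.22%, or 2-fold lower, against 5.86%. At 1.5-fold ATF3 was higher (0.64) and TRIB3 lower (-0.88), against 28.0% of all symbols. These are the 2 genes that set BMN apart from Control, and both comparisons share the BMN library. In high dose against BMN the same 2 genes differed in the same directions, with ATF3 at 0.55 and TRIB3 at -0.80, and ASNS was at -0.55 and CHAC1 at 0.50. There 3 of 9 genes were higher and 6 lower (median -0.24, against -0.27 over all symbols), none was 2-fold higher (2.33% of all symbols) or 2-fold lower (6.89%), and TRIB3 alone passed 1.5-fold (30.1%). Scaled by the median ratio, ATF3 was 0.89, CHAC1 0.74, ASNS -0.20 and TRIB3 -0.52 in high dose against BMN, so that ATF3 and CHAC1 and not TRIB3 passed 1.5-fold. Under that scaling 7 genes were higher and 2 lower, and HSPA5, XBP1, HERPUD1 and PPP1R15A were 0.11, 0.08, 0.06 and 0.12, and not -0.24, -0.26, -0.27 and -0.19.

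The addition of BMN to PAZA was read from low dose against PAZA, where 5 genes were higher and 5 lower, with a median of -0.05, against 0.03, and 5 and 5 under the median ratio. None was 2-fold higher, against 2.45%, or 2-fold lower, against 2.78%. At 1.5-fold DDIT3 was lower (-0.97) and CHAC1 higher (0.96), against 17.4%, and both comparisons that single out these genes share the PAZA library. The ratio of the CHAC1 values was 4.77, since its low level makes the log2 difference small. Of the doses, low against high, 6 genes were higher and 4 lower, with a median of 0.07, against 0.13. None was 2-fold higher, against 3.38%, 2-fold lower, against 2.34%, or past 1.5-fold, against 19.0%. HERPUD1 (0.32) and CHAC1 (-0.48) lay at the ends of the range. With the median ratio 4 were higher and 6 lower, with ATF3 turned from 0.10 to -0.06 and ATF4 from 0.03 to -0.12.

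The wider pathway was read from lists of genes that do not include the 10. Each list's median against Control is read beside that of all symbols, which was -0.07 in PAZA, 0.09 in BMN, -0.03 in low dose and -0.17 in high dose. Counts of genes higher are read beside the share of all symbols higher, in the same order 43.6%, 59.9%, 47.2% and 35.5%. Under the median ratio these shares were 52.0%, 51.9%, 53.5% and 51.3%. Counts past 2-fold are read beside the share of all symbols, which in the same order was 3.47%, 4.66%, 3.65% and 3.20% higher and 3.53%, 2.25%, 3.54% and 4.95% lower, so that 1 gene of a list of 11 to 21 is near the background. Of 11 genes for eIF2alpha, its kinases, a phosphatase subunit and its nucleotide exchange factor, 1 was 2-fold higher in PAZA, in low dose and in high dose against Control, and none in BMN, against 3.47%, 3.65%, 3.20% and 4.66% of all symbols. That gene was EIF2AK4, which encodes GCN2, the kinase that senses amino acid shortage. It was listed at 3.40 in Control, 8.87 in PAZA, 3.98 in BMN, 9.20 in low dose and 8.07 in high dose. The 3 libraries with PAZA all lay above the 2 without it, but how many of all symbols show this order was not counted. The log2 differences against Control were 1.17, 1.21 and 1.04 for PAZA, low and high dose, and 1.27, 1.30 and 1.27 when scaled by the median ratio. All 3 differences share the 1 Control library, with its low value of 3.40, so they are not independent. The other kinases of the list did not share this pattern. EIF2AK3, which encodes PERK, was listed at 9.33 in Control, 6.39 in PAZA, 15.8 in BMN, 10.00 in low dose and 14.5 in high dose, highest in BMN and lowest in PAZA. EIF2AK2, which encodes PKR, the kinase that senses double-stranded RNA, was listed at 40.8 in Control, 22.0 in PAZA, 46.0 in BMN, 21.6 in low dose and 22.8 in high dose. The 3 libraries with PAZA lay below the 2 without it, but its value did not follow the constant between tables. EIF2AK1, which encodes HRI, the kinase that senses heme shortage, was highest in BMN at 25.1 and lowest in high dose at 10.7. In low dose against BMN EIF2AK2 was 2-fold lower (-1.06, but -0.87 under the median ratio), against 5.86% of all symbols. EIF2AK4 was 2-fold higher in that comparison (1.03, and 1.20 under the median ratio), against 3.22%. In high dose against BMN EIF2AK1 was 2-fold lower (-1.16, but -0.84 under the median ratio), against 6.89%. Over the list, 4 genes were higher and 7 lower in PAZA (median -0.17, against -0.07), 9 and 2 in BMN (0.17, against 0.09), 4 and 7 in low dose (-0.15, against -0.03) and 3 and 8 in high dose (-0.16, against -0.17). Under the median ratio 5, 7, 5 and 6 of the 11 were higher in the 4 libraries. EIF2S1, eIF2alpha itself, was listed between 139 in low dose and 175 in PAZA, PPP1R15B, the constitutive partner of the eIF2alpha phosphatase, between 49.0 in PAZA and 67.7 in BMN, and EIF2B1, a subunit of the exchange factor, between 29.1 in high dose and 45.5 in BMN.

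Of the 17 measured genes of amino acid synthesis and transport under ATF4, 11 were higher and 6 lower in PAZA against Control, with a median of 0.22, against -0.07. In BMN 14 were higher, with a median of 0.28 against 0.09, and in low dose 6 were higher, with a median of -0.09 against -0.03. In high dose 8 were higher, with a median of -0.04 against -0.17, and 14 of 17 lay above the median of all symbols. Scaled by the median ratio, 14 were higher in high dose, with a median of 0.18 against 0.01, and 9 in low dose, with a median of 0.00 against 0.03. For PAZA and BMN the median ratio gave 14 and 13 higher. PSAT1, an enzyme of serine synthesis, was the single gene 2-fold higher in PAZA (1.08), 1 of 17 against 3.47% of all symbols. Under the median ratio SLC1A5 passed 2-fold as well (1.05, and 0.95 by the sum). PSAT1 was listed at 67.8 in Control, 144 in PAZA, 99.3 in BMN, 88.3 in low dose and 88.4 in high dose. PAZA held the highest PSAT1 as it did the highest ATF4. Low dose against PAZA showed 15 of these 17 genes lower, also under the median ratio, while 54.2% of all symbols were higher, with a median of -0.21 against 0.03. SLC6A9, SLC1A5 and CTH, 3 of the 17, were 2-fold lower, against 2.78% of all symbols. All 3 stood low, at 6.99, 8.24 and 1.53 in PAZA and 2.60, 2.21 and 0.158 in low dose. Such low values carry more counting error. SLC38A2, a carrier of neutral amino acids, had the highest mean of the list, with 122 to 151, and stood in no 2-fold count. In PAZA, PSAT1 at 144 was above SLC38A2 at 122. SLC3A2, the heavy chain of several amino acid exchangers, was listed between 73.3 in high dose and 88.3 in low dose.

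Aminoacyl-tRNA synthetases under ATF4 load tRNAs with amino acids. They were higher in BMN than in Control for 11 of 12 genes, against 59.9% of all symbols. The median was 0.27, against 0.09, and none was 2-fold. In PAZA 5 were higher (-0.09, against -0.07), in low dose 4 (-0.26, against -0.03) and in high dose 4 (-0.35, against -0.17). Under the median ratio 10, 6, 5 and 4 were higher in BMN, PAZA, low and high dose. SARS, the highest of them, was listed at 313 in Control, 287 in PAZA, 365 in BMN, 263 in low dose and 232 in high dose. BMN was the highest of the 5 here as well. NARS was listed between 97.3 in low dose and 191 in BMN, and GARS between 117 in Control and 152 in PAZA. In high dose against BMN 11 of 12 were lower, with MARS and TARS 2-fold lower (2 of 12, against 6.89%), and the median was -0.54, against -0.27 over all symbols, of which 28.0% were higher. Scaled by the median ratio, 8 of 12 were lower, with a median of -0.20 against -0.01, and none was 2-fold lower. Among 17 other targets of ATF4 and CHOP, only VEGFA, the angiogenic growth factor, was past 2-fold against Control, lower in BMN and at the limit of the count. It was listed at 65.9 in Control, 47.0 in PAZA, 32.4 in BMN, 50.5 in low dose and 33.6 in high dose. NUPR1, a stress-induced chromatin protein, was listed between 49.1 in PAZA and 79.8 in Control. ERO1L, an oxidase of the ER, was listed between 92.4 in BMN and 168 in low dose, and NDRG1, a hypoxia-induced gene, between 88.0 in BMN and 150 in Control. Over the 17, 6, 9, 4 and 7 were higher in PAZA, BMN, low and high dose, with medians of -0.01, 0.04, -0.14 and -0.26, and 9, 8, 7 and 8 under the median ratio.

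Among the 12 measured sensors and transducers of the unfolded protein response, none was past 2-fold against Control in any library. ATF6, the sensor that is cut in the Golgi, was listed between 36.6 in PAZA and 44.3 in Control, MBTPS1, a protease that cuts it, between 48.3 in high dose and 64.1 in BMN, and RTCB, the ligase that joins the spliced XBP1 mRNA, between 50.2 in high dose and 62.9 in BMN. The number higher than in Control was 3 in PAZA (median -0.27), 9 in BMN (0.12), 5 in low dose (-0.03) and 3 in high dose (-0.19), and 4, 7, 8 and 7 under the median ratio.

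ER chaperones and foldases, the classical output of ATF6 and XBP1, were higher in BMN than in Control for 19 of 19 genes. The differences were small, from 0.03 for P4HB to 0.58 for FKBP2, with a median of 0.26, against 0.09 over all symbols, of which 59.9% were higher. Scaled by the median ratio, 17 of 19 were higher, with a median of 0.17 against 0.02. None of the 19 reached 2-fold in any comparison. CALR, a calcium-binding lectin chaperone, was listed at 1390 in Control, 1650 in PAZA, 1890 in BMN, 1200 in low dose and 1130 in high dose. HSP90B1, the ER form of HSP90, was listed at 1410, 1470, 1720, 1300 and 1140 in the same order. CANX, the membrane-bound relative of CALR, was listed between 1160 in high dose and 1790 in BMN. By the sum scaling all 3 were highest in BMN and lowest in high dose, whereas HSPA5, an ER chaperone of the same response, was highest in PAZA. Under the median ratio CALR and CANX were lowest in low dose, at -0.11 and -0.10 against Control, with -0.04 and -0.02 in high dose. CALR was then 0.37 in PAZA and 0.36 in BMN. The rank of high dose thus depends on the scaling.

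In PAZA 13 of the 19 chaperones were higher than in Control (median 0.13, against -0.07), as were 43.6% of all symbols. Under the median ratio 16 were higher. In low dose 8 were higher and 11 lower (median -0.03, as over all symbols), but 11 were higher and 8 lower under the median ratio. In high dose 3 were higher and 16 lower with a median of -0.23, against -0.17, but 12 were higher under the median ratio. No direction can be given for either dose. In high dose against BMN 19 of 19 were lower (median -0.44, against -0.27), where only 28.0% of all symbols were higher. Under the median ratio 15 of 19 were lower, with 49.4% of all symbols higher. In low dose against high dose 19 of 19 were higher, with a median of 0.19 against 0.13 and 65.5% of all symbols higher, and 11 of 19 under the median ratio.

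Of 17 measured genes of ER-associated degradation, UBE2G2, a ubiquitin-conjugating enzyme, was 2-fold higher in BMN (1.18), with 11.5 in Control, 17.0 in PAZA, 27.4 in BMN, 23.8 in low dose and 12.8 in high dose. BMN and low dose were the 2 highest libraries, as they were for HERPUD1. EDEM1 was listed between 231 in low dose and 347 in BMN, SELENOS between 79.5 in high dose and 120 in low dose, and VCP between 66.5 in high dose and 96.4 in BMN. Over the 17, 5, 10, 8 and 3 were higher in PAZA, BMN, low and high dose (medians -0.24, 0.01, -0.09 and -0.27), and 6, 5, 8 and 8 under the median ratio. Of 19 genes of ER translocation and secretion, SEC61A1, the channel through which proteins enter the ER, was listed at 247 in BMN and between 104 and 110 in the other 4 libraries. SEC61A1 did not follow the constant between the tables of 1 library, so its value depends on the table. The other subunits of the channel went the other way. SEC61B was listed at 56.6 in Control, 108 in PAZA, 39.4 in BMN, 98.0 in low dose and 68.7 in high dose, and SEC61G at 125, 218, 93.9, 201 and 205 in the same order. Both were lowest in BMN and highest in PAZA, and low dose was 2-fold above BMN for both (1.29 and 1.09), against 3.22% of all symbols. SSR3 was listed between 442 and 579, SSR1 between 249 and 419 and SRPR between 224 and 335. Over the 19, 14, 13, 13 and 8 were higher in PAZA, BMN, low and high dose (medians 0.14, 0.21, 0.11 and -0.08), and 17, 10, 14 and 15 under the median ratio.

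Immediate early genes, which like ATF3 respond within minutes to growth factors and stress, were higher in BMN than in Control for 19 of 21 genes (16 under the median ratio), with a median of 0.59, against 0.09. Of all symbols 59.9% were higher there, and 51.9% under the median ratio. EGR1, EGR2, KLF2 and KLF4, all zinc finger factors, were 2-fold higher there, 4 of 21 against 4.66% of all symbols. EGR1 was listed at 3.26 in Control, 2.06 in PAZA, 9.08 in BMN, 2.19 in low dose and 2.06 in high dose. KLF4 was listed at 3.35, 4.13, 9.76, 2.74 and 1.71 in the same order. KLF2 was listed at 1.36 in Control, 3.22 in PAZA, 5.20 in BMN, 4.97 in low dose and 6.25 in high dose, above Control in all 4 treated libraries and 2-fold higher in the 3 with BMN. NR4A1, an orphan nuclear receptor, was listed at 0.547 in Control, 2.13 in PAZA, 2.01 in BMN, 2.03 in low dose and 1.89 in high dose. All 4 treated libraries lay above Control by a like amount, with log2 differences of 1.02, 0.96, 0.97 and 0.90. BTG2, an antiproliferative gene, was 2-fold lower in high dose (-1.03, but -0.86 under the median ratio). KLF6, the highest of the list, was listed between 155 in high dose and 209 in Control, JUN between 69.5 in high dose and 88.5 in BMN, and IER3 between 42.0 in high dose and 57.7 in PAZA. In PAZA, low and high dose 12, 13 and 7 of the 21 were higher than in Control, and 12, 14 and 10 under the median ratio. So ATF3 was lowest in the library in which EGR1 and KLF4 were highest. Cytosolic heat shock genes, the stress response outside the ER, had a median of 0.16 in BMN, against 0.09, and -0.04, 0.02 and -0.13 in PAZA, low and high dose, against -0.07, -0.03 and -0.17. Under the median ratio the medians were 0.07 in BMN and 0.07, 0.11 and 0.12 in PAZA, low and high dose, so the sign in PAZA and high dose depends on the scaling. HSPA8 was listed between 2410 in high dose and 4310 in Control, HSP90AB1 between 1550 in high dose and 2560 in BMN, and HSP90AA1 between 1130 in high dose and 2090 in BMN. CRYAB, a small heat shock protein, was 2-fold higher in PAZA, at 44.2 against 21.6 in Control. HSPA1B was listed at 3.64 in Control, 6.91 in PAZA, 3.48 in BMN, 8.72 in low dose and 9.84 in high dose, and was 2-fold higher in low and high dose. HSPA1A was 2-fold higher in low dose, at 3.83 against 0.722 in Control. HSPA1B and HSPA1A are near-identical copies that share reads, so the split between them is uncertain.

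**Figure D4:**
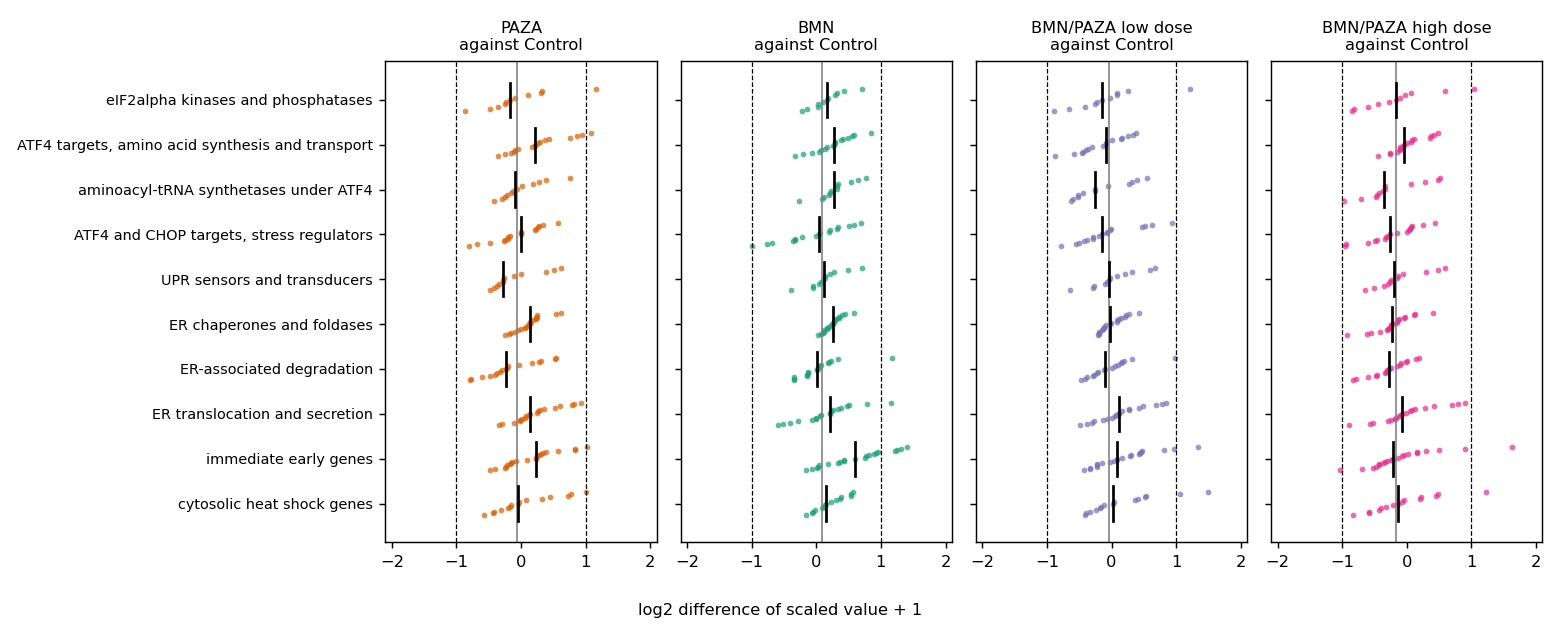
Log2 difference of scaled value plus 1 against Control for the genes of each pathway list (points, sorted within a list) in the 4 treated libraries, with the list's median as a black bar, the median of all symbols as a grey line and 2-fold as dashed lines. The ER chaperones lie right of 0 for 19 of 19 genes in BMN, with a median of 0.26, and the immediate early genes reach a median of 0.59 there.

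Markers of other cells differed between the libraries as well. All 8 fibroblast markers were found, and their summed level was 377 in Control, 622 in PAZA, 960 in BMN, 376 in low dose and 403 in high dose, so BMN was highest both here and for the ER chaperones. The sum of 8 proliferation genes was likewise highest in BMN, at 1870, against 1040 to 1350 elsewhere. Sums of 6 leukocyte markers ran from 188 in high dose to 283 in BMN, of 8 macrophage markers from 335 to 487, of 6 neutrophil markers from 68.9 in BMN to 238 in high dose, and of 7 endothelial markers from 36.8 in Control to 64.2 in PAZA. Skeletal muscle markers, 7 of 7 found, summed to 12.2 in Control, 67.6 in PAZA, 198 in BMN, 11.2 in low dose and 222 in high dose, with CKM, TNNC2 and MB at 0 in low dose. Epidermis markers, 5 of 7 found, summed to 205 in BMN and 1.84 in low dose, with KRT5, KRT1 and DSG1A at 0 there. Of the plasma and B cell markers 4 of 10 were found, with sums from 21.5 to 28.9 and CD79A and CD79B at 0 in BMN, and of the adipocyte markers 4 of 6, with sums from 44.5 in Control to 105 in PAZA. Markers of tumor and epithelial cells summed to between 2260 and 2690, with EPCAM at 0 in PAZA and KRT18 at 0 in Control. The part of other cells in the values of the 10 genes was not tested, and fewer cells of a type cannot be told apart from less RNA per cell.

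For ATF4 and HSPA5 the symbols with the closest pattern over the 5 libraries were sought among 4709 symbols with a mean of at least 10 and a log2 range of at least 0.5, by the Euclidean distance of the centred log2 values. For ATF4 these were MVD, TRAP1 and PSMA1, at distances of 0.14, 0.15 and 0.16. For HSPA5 they were WDR45B, HADH and PRKRIP1, at 0.15, 0.17 and 0.18. ATF4 and HSPA5, 1.29-fold and 1.28-fold from lowest to highest, themselves spanned less than that range. Symbols as flat as they are were thus left out of the search. With 5 points a likeness of this kind is a description of these libraries.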

How the data were processed

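RNA-seq of 5 libraries, 1 per group, was read from 5 deposited tables, each holding 2 groups. The values were deposited by the authors as a gene expression value per symbol and were read as FPKM from their range, since the tables name no unit. The labels list HISAT2, StringTie and the build GRCm38, with no versions or roles. Counts were not used here and the depth per library is unknown, so no interval was computed.

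Control and PAZA were taken from their shared table, BMN and high dose from theirs, and low dose from its table with high dose. A symbol on several rows was represented by its highest row. Each library was scaled to a sum of 1000000 over 13979 shared symbols. The low-dose column was 3.26 and 3.41 times as large there as in its other tables, a constant that the scaling removes. Differences were taken as log2(value + 1), and a symbol at 0 in both libraries compared was dropped. No test was run, with 1 library per group. The calculation was tested on simulated data.

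The genes named were all 10 members, the 3 highest genes of each list and those 2-fold from Control where 5 or fewer were. Other list genes that appear were named for counts of 5 or fewer in other comparisons, or were chosen after their values were seen. The members and lists were chosen with earlier results of these data known, and the promoter motifs after the values were seen. Promoters and locations came from RefSeq (GRCm38.p6), which matched all 10 genes. Python 3.11.15 with pandas 2.3.3 and numpy 2.4.6 was used.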

Additional observations from a re-analysis of the deposited data

Results flagged for a closer look

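DDIT3 in BMN/PAZA low dose was listed at 4.20 FPKM in the table with PAZA, which supplied no value to the comparisons, and at 0 in the table with BMN. It stood out because a library in which the gene is listed at 0 in 1 table has a value above 0 in another. No group had enough libraries to look for an outlying sample.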

How the results depend on the processing

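No paired analysis was possible because each group has 1 library. Counted with DDIT3 as listed, the number of the 10 genes past 2-fold was 1 in PAZA against Control, 1 in BMN against Control, 1 in low dose against BMN, 1 in high dose against BMN and 0 in the other 4 comparisons, and 68 of 88 recomputed counts stayed within 1.5 times these. PAZA against Control gave 2 under the median ratio, without the 100 highest symbols and at 1.5-fold (DDIT3 and CHAC1). At 1.5-fold BMN against Control gave 3, low dose against BMN 3 and high dose against BMN 2. Low dose against BMN gave 2 with a pseudocount of 0.1. Low dose against PAZA gave 2 with that pseudocount, without the 100 highest symbols and at 1.5-fold. With BMN and low dose read from their own table, DDIT3 at 0 made the count 1 in low dose against Control, PAZA and high dose, and 0 against BMN. The 2 alternatives chosen after seeing the data left out symbols at 0 in 1 of the libraries or off the constant between tables (380 symbols, DDIT3 the single member), and both gave 0 in the 3 comparisons with BMN. Over all symbols, the share past 2-fold in either direction was 5.23% to 9.22% over the 8 comparisons, and 16.9% to 21.6% with a pseudocount of 0.1 and 9.74% to 12.9% without the 100 highest symbols. For single genes, 727 of 761 recomputed log2 differences moved by less than 0.25, a limit set by choice for want of replicates. Many were bound to stay, since some alternatives only drop symbols. Others replace a library by a column that, for all members but DDIT3, differs by a constant. The same holds for many of the recomputed counts, so these shares say little about stability. The 1 difference past 2-fold between values above 0, CHAC1 in PAZA against Control, kept its sign. Of the values at least 0.1 from 0, 16 changed sign or came to 0.00, all under the median ratio or without the 100 highest symbols and all in comparisons with high dose. The value that came to 0.00 without turning was ATF3 in high dose against Control under the median ratio. CHAC1 in PAZA against Control ranged to -2.43 with a pseudocount of 0.1. Where no construction of the alternative shows it, the cause was not tested. The unknown depth limits most what can be read from TRIB3 and CHAC1.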
